A study of Mus musculus with 12 samples.

Results

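Wif1, Sfrp1, Sfrp4 and Dkk3 encode secreted proteins of the families that restrain Wnt signalling outside the cell. They were chosen by their annotated symbols, and they are 4 of the 11287 genes named on the arrays. All 4 were among the 5712 genes tested, a gene being tested if, in 3 arrays or more, it exceeded the array's median. The RNA was hybridised to Affymetrix Mouse Exon ST arrays, whose probe sets lie in single exons. It came from epidermal keratinocytes of the back skin, taken from females at 9.5 weeks of age, when the study describes hair follicles as resting. The 4 groups, with 3 arrays each, were WT CD34+ITGA6+ cells, K14ΔNLef1 CD34+ITGA6+ cells, WT ITGA6+ cells and K14ΔNLef1 ITGA6+ cells. The K14ΔNLef1 transgene places under the keratin 14 promoter, active in basal keratinocytes, a Lef1 protein that lacks the N terminus and so cannot bind β-catenin, while WT mice lack it. The sort for CD34 and ITGA6 takes bulge stem cells of the hair follicle, and the methods describe the ITGA6+ cells as negative for CD34, that is, the remaining basal keratinocytes. The study made the profiles to learn how ΔNLef1 changes gene expression in each population at an early stage.

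Canonical Wnt signalling starts when a Wnt ligand binds a Frizzled receptor and its Lrp co-receptor, which stabilises β-catenin and lets it act with Lef/Tcf factors on target genes. Wif1 and the secreted frizzled-related proteins Sfrp1 and Sfrp4 bind Wnt ligands, and Dkk3 is the divergent member of the Dickkopf family, whose founder blocks the Lrp co-receptors. Bulge stem cells in resting follicles are known for expressing several such inhibitors, and Wnt signalling is a main signal for the onset of hair growth.

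The levels below are log2 intensities, the median over the probe sets of a gene. The group labels were checked first. Lef1 was higher in K14ΔNLef1 than in WT cells by 6.07 ± 0.24 (log2 difference ± SE, limma) in CD34+ITGA6+ cells and by 6.44 ± 0.24 in ITGA6+ cells. Between the sorted populations, Cd34 differed in the direction of the gate, by 6.43 ± 0.19 in WT and 6.07 ± 0.19 in K14ΔNLef1 mice. Array medians ran from 7.35 to 7.63, arrays of a group correlated with Pearson's r from 0.909 to 0.936, and values near or under these medians are close to background, so a fold is given only where both groups lie above them. Another label field names the populations the other way round, and the titles were followed because the Cd34 levels go with them. Itga6, part of both gates, lay above the array medians in all 12 arrays. It was lower in CD34+ITGA6+ than in ITGA6+ cells, with log2 differences of -1.11 ± 0.19 in WT and -0.69 ± 0.19 in K14ΔNLef1 mice. Of 8 bulge markers, 6 were measured, and all 6 lay above the array medians in every CD34+ITGA6+ array. Krt15 and Sox9 did so in every ITGA6+ array as well. All 7 basal keratinocyte markers lay above the array medians in all 12 arrays.

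The 4 inhibitors fell into different patterns. Wif1 and Sfrp4 were higher in K14ΔNLef1 than in WT cells within the CD34+ITGA6+ population, and no such difference was called in ITGA6+ cells. Sfrp1 was lower in K14ΔNLef1 than in WT cells within the ITGA6+ population, a call that depended on single arrays. Dkk3 differed between the populations in both genotypes, and no genotype difference was called for it. CD34+ITGA6+ cells had the higher level of Wif1, Sfrp1 and Dkk3 in both genotypes, and of Sfrp4 in K14ΔNLef1 mice. Each array measured RNA of a sorted population, so fewer cells making a transcript and less of it per cell cannot be told apart.

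**Figure D1:**
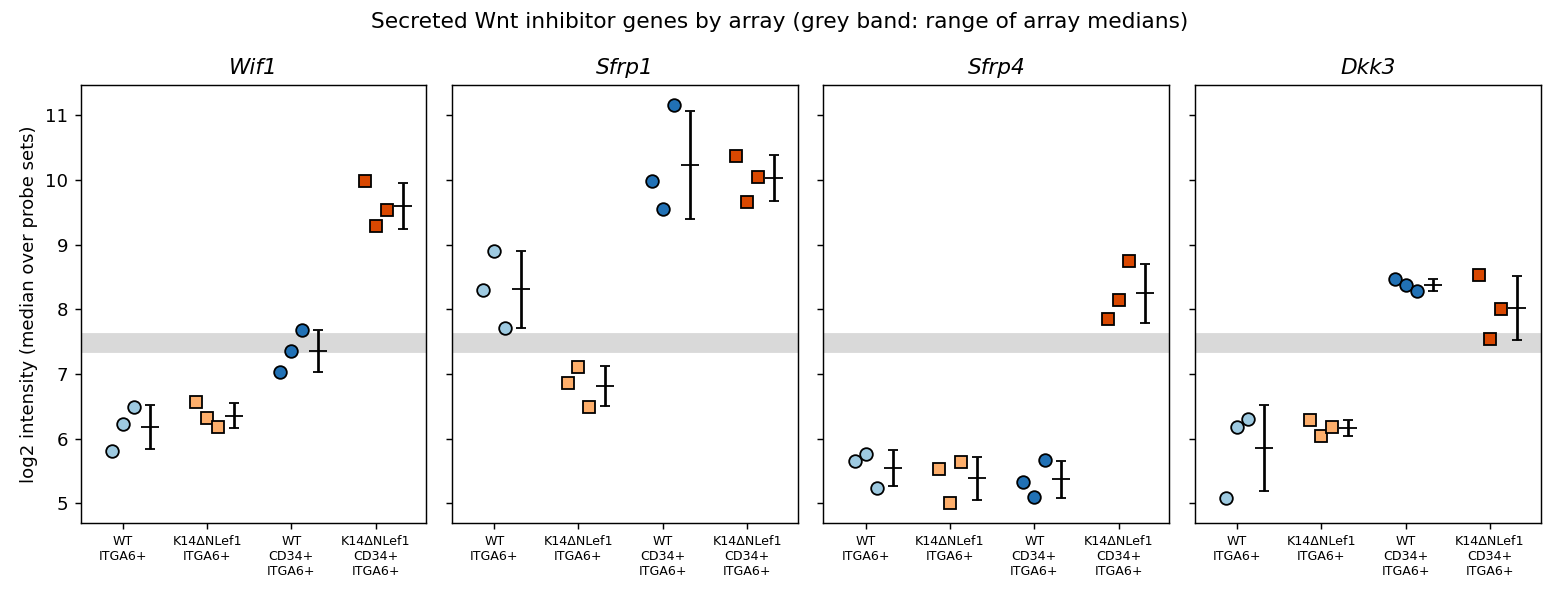
The vertical axis is the log2 intensity of each gene (median over its probe sets), with 1 symbol per array, 3 arrays in each of the 4 groups on the horizontal axis, and bars showing the mean and SD. The grey band is the range of the array medians, 7.35 to 7.63; all 3 K14ΔNLef1 CD34+ITGA6+ arrays lie above every other array for Wif1 and Sfrp4, whereas both CD34+ITGA6+ groups overlap for Sfrp1 and Dkk3.

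Wif1 binds Wnt ligands through its WIF domain. Its 3 K14ΔNLef1 CD34+ITGA6+ arrays measured 9.99, 9.29 and 9.54 on the log2 scale. The 3 WT CD34+ITGA6+ arrays measured 7.03, 7.35 and 7.68, around the array medians. In ITGA6+ cells the values were 6.57, 6.32 and 6.18 in K14ΔNLef1 and 5.81, 6.23 and 6.49 in WT mice, all under the array medians. The genotypes did not overlap in CD34+ITGA6+ cells, and they overlapped in ITGA6+ cells. By group mean the order was K14ΔNLef1 CD34+ITGA6+ (9.60 ± 0.35, SD, n = 3), WT CD34+ITGA6+ (7.35 ± 0.32), K14ΔNLef1 ITGA6+ (6.36 ± 0.20) and WT ITGA6+ (6.18 ± 0.34). Both CD34+ITGA6+ groups differed, and WT CD34+ITGA6+ cells exceeded K14ΔNLef1 ITGA6+ cells by 0.99 ± 0.24 (adjusted p = 0.0101). The 2 ITGA6+ groups were not separated.

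The promoter of Wif1 is shown because it is the only one of the 4 genes with an entry in the promoter table used, and because the transgene encodes a Lef/Tcf factor. It is the RefSeq sequence of the 250 bases before the gene's start, on the plus strand of GRCm38.p6 at chr10:121033754-121034003. This is not the build of the arrays, mm9, and the expression values do not depend on it. CG dinucleotides are in capitals.
Wif1: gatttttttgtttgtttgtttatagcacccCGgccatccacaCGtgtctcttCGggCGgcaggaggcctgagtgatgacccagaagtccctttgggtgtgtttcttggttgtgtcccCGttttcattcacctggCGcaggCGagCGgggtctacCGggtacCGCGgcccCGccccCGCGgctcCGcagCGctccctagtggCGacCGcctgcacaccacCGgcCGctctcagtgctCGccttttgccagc
The window held 21 CG dinucleotides, against a median of 6 over all 32851 promoters of the table, and 16.3% of promoters held as many. G and C made up 62.8% of it. Neither CTTTGA nor CTTTGT, the core letters bound by Lef/Tcf factors, was found on either strand. Over all promoters of this length, 13.8% held CTTTGA, 16.5% held CTTTGT and 27.6% held either. These letters being missing from this window says nothing about binding of Lef1 elsewhere.

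Sfrp4, a secreted frizzled-related protein with a Frizzled-like cysteine-rich domain, stood above the array medians in 1 group only. Its K14ΔNLef1 CD34+ITGA6+ arrays measured 7.86, 8.14 and 8.75 on the log2 scale. The WT CD34+ITGA6+ arrays measured 5.34, 5.10 and 5.68. In ITGA6+ cells the arrays measured 5.53, 5.01 and 5.64 in K14ΔNLef1 and 5.65, 5.77 and 5.24 in WT mice. The lowest K14ΔNLef1 CD34+ITGA6+ array (7.86) lay above the highest of the other 9 arrays (5.77). The remaining groups, with means of 5.37 ± 0.29 (SD, n = 3), 5.39 ± 0.33 and 5.55 ± 0.28, were not separated from each other. Sfrp4 passed the filter on low values only through the 3 arrays in which it was high, so among tested genes it had to differ, and its call is a description to that extent. With no filter, over 11287 genes, the genotype difference in CD34+ITGA6+ cells had an adjusted p of 7.63e-05 (limma).

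Sfrp1, the other frizzled-related protein, was high in CD34+ITGA6+ cells of both genotypes. The WT CD34+ITGA6+ arrays measured 9.98, 9.55 and 11.16 on the log2 scale, and the K14ΔNLef1 ones 10.37, 9.66 and 10.05, within the WT range. In ITGA6+ cells the WT arrays measured 8.30, 8.91 and 7.72, all above the array medians. The K14ΔNLef1 ITGA6+ arrays measured 6.86, 7.11 and 6.48, all under the array medians and under every WT array. The order of means was WT CD34+ITGA6+ (10.23 ± 0.83, SD, n = 3), K14ΔNLef1 CD34+ITGA6+ (10.03 ± 0.35), WT ITGA6+ (8.31 ± 0.59) and K14ΔNLef1 ITGA6+ (6.82 ± 0.31). The first pair was not separated. K14ΔNLef1 CD34+ITGA6+ and WT ITGA6+ cells differed by 1.72 ± 0.38 (adjusted p = 0.00585).

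Dkk3 was high in CD34+ITGA6+ cells and low in ITGA6+ cells. The WT CD34+ITGA6+ arrays measured 8.47, 8.38 and 8.29 on the log2 scale, and the K14ΔNLef1 ones 8.54, 7.54 and 8.0005. The ITGA6+ arrays measured 5.09, 6.18 and 6.31 in WT and 6.29, 6.04 and 6.18 in K14ΔNLef1 mice. Populations did not overlap in either genotype, and genotypes overlapped in both populations. The CD34+ITGA6+ groups (8.38 ± 0.09, SD, n = 3, in WT and 8.03 ± 0.50 in K14ΔNLef1) were not separated, nor were the ITGA6+ groups (5.86 ± 0.67 and 6.17 ± 0.12). The intervening neighbours, K14ΔNLef1 CD34+ITGA6+ and K14ΔNLef1 ITGA6+ cells, differed by 1.86 ± 0.30 (adjusted p = 7.83e-04).

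In CD34+ITGA6+ cells, the genotype comparison asks what ΔNLef1 changed in the bulge gate. Wif1 was higher in K14ΔNLef1 cells by 2.25 ± 0.24 (log2 difference ± SE, limma, adjusted p = 1.06e-04), with a 95% interval of 1.73 to 2.77. Sfrp4 was higher by 2.88 ± 0.26 (adjusted p = 2.38e-05), with an interval of 2.32 to 3.43. Sfrp1 differed by -0.21 ± 0.38 (adjusted p = 0.953, interval -1.02 to 0.61), and Dkk3 by -0.36 ± 0.30 (adjusted p = 0.822, interval -0.9999 to 0.29). These intervals bound the differences and do not show that the levels were alike. Of the 4 genes, 2 were called, against 1.91% of all genes tested, and for these 2 the genotypes did not overlap in the higher direction, as for 4.9% of all genes. Sfrp4 passed the filter only through the 3 K14ΔNLef1 arrays compared here, so its part in these counts was set by the filter. With no filter its adjusted p was 7.63e-05. Both calls held with each of the 6 arrays compared left out in turn, where Wif1 ranged from 2.06 to 2.41 and Sfrp4 from 2.63 to 3.07.

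In ITGA6+ cells, Sfrp1 was lower in K14ΔNLef1 than in WT mice by 1.49, a log2 difference of -1.49 ± 0.38 (limma, adjusted p = 0.0342, 95% interval -2.31 to -0.68). Of all genes tested, 5.3% were called in this comparison, and for 13.2% the K14ΔNLef1 arrays lay under all WT arrays. Arrays are numbered as the replicates in the labels. The call was lost without WT array 1 (-1.498, adjusted p = 0.0865), WT array 2 (-1.19, 0.15), K14ΔNLef1 array 1 (-1.51, 0.0884), array 2 (-1.64, 0.053) or array 3 (-1.33, 0.136). It was also lost with no filter on low values (adjusted p = 0.0595). Wif1 differed by 0.18 ± 0.24 (adjusted p = 0.853, interval -0.34 to 0.70), Sfrp4 by -0.16 ± 0.26 (0.887, -0.72 to 0.40) and Dkk3 by 0.31 ± 0.30 (0.749, -0.33 to 0.96). As medians over probe sets, these 3 genes lay under the array medians in all 6 ITGA6+ arrays. Each had 1 probe set above the array median in all 12 arrays, and none of the 3 was called by limma for genotype in ITGA6+ cells (0 at an unadjusted p under 0.05). Wif1 probe set 1 differed by 0.26 ± 0.23 (adjusted p = 0.786, over 67859 probe sets), Sfrp4 probe set 3 by 0.013 ± 0.19 (0.993) and Dkk3 probe set 5 by -0.036 ± 0.20 (0.981).

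Whether the genotype effect differed between the populations was tested directly. The effect on Wif1 was larger in CD34+ITGA6+ than in ITGA6+ cells by 2.07 ± 0.34 (limma, adjusted p = 0.00597), and the effect on Sfrp4 by 3.04 ± 0.37 (adjusted p = 4.77e-04). Over all genes tested, 1.54% were called for this difference. Sfrp4 passed the filter only through the 3 K14ΔNLef1 CD34+ITGA6+ arrays, so among tested genes it had to differ. By single probe sets, 1 of the 8 tested for Wif1 and 3 of the 5 tested for Sfrp4 were called, against 0.407% of all probe sets. The 3 called for Sfrp4 also passed only through those arrays. Probe sets above the array median in all 12 arrays, Wif1 probe set 1 (limma, adjusted p = 0.221) and Sfrp4 probe set 3 (0.0911), were not called. For Sfrp1 the difference was 1.29 ± 0.54 (adjusted p = 0.425, interval 0.14 to 2.44) and for Dkk3 it was -0.67 ± 0.42 (adjusted p = 0.731, interval -1.58 to 0.24). A lower Sfrp1 level in ITGA6+ cells of K14ΔNLef1 mice was therefore not shown to be particular to that population.

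The comparison of the populations asks how the bulge gate differs from the other basal cells. In WT mice Dkk3 was higher in CD34+ITGA6+ cells by 2.53 ± 0.30 (log2 difference ± SE, limma, adjusted p = 4.02e-05), Sfrp1 by 1.92 ± 0.38 (adjusted p = 0.00252, 3.80-fold) and Wif1 by 1.17 ± 0.24 (adjusted p = 0.0034). Sfrp4 differed by -0.18 ± 0.26 (adjusted p = 0.687). In K14ΔNLef1 mice all 4 were higher in CD34+ITGA6+ cells, Wif1 by 3.24 ± 0.24 (adjusted p = 9.09e-07), Sfrp1 by 3.21 ± 0.38 (5.46e-05), Sfrp4 by 2.86 ± 0.26 (5.16e-06) and Dkk3 by 1.86 ± 0.30 (7.83e-04). In the higher direction, 5.72% of all genes were called in WT and 4.62% in K14ΔNLef1 mice, and populations did not overlap for 9.47% and 9.12%. Wif1 and Dkk3 passed the filter only through CD34+ITGA6+ arrays, 5 and 6 of them, so a higher level there was in part set by the filter. With no filter their calls in WT mice had adjusted p of 0.00644 and 1.07e-04. Sfrp4 passed only through the 3 K14ΔNLef1 CD34+ITGA6+ arrays, so among tested genes it had to differ in K14ΔNLef1 mice. For the calls in these mice, adjusted p (limma) stayed at or under 5.71e-05 for Wif1, 0.00024 for Sfrp4 and 0.00221 for Dkk3. This held over the alternative fits other than those without 1 array, with no filter among them. When probe sets were averaged instead, the Sfrp1 difference in WT mice was 1.15 (adjusted p = 0.00483). The median over all genes was -0.17 in WT and -0.15 in K14ΔNLef1 mice, and quantile normalisation moved it to -0.07 and -0.06 and turned no called value of the 4 genes. The K14ΔNLef1 CD34+ITGA6+ arrays enter both the genotype comparison in CD34+ITGA6+ cells and the population comparison in K14ΔNLef1 mice, so the values of Wif1 and Sfrp4 in them are not separate evidence.

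**Figure D2:**
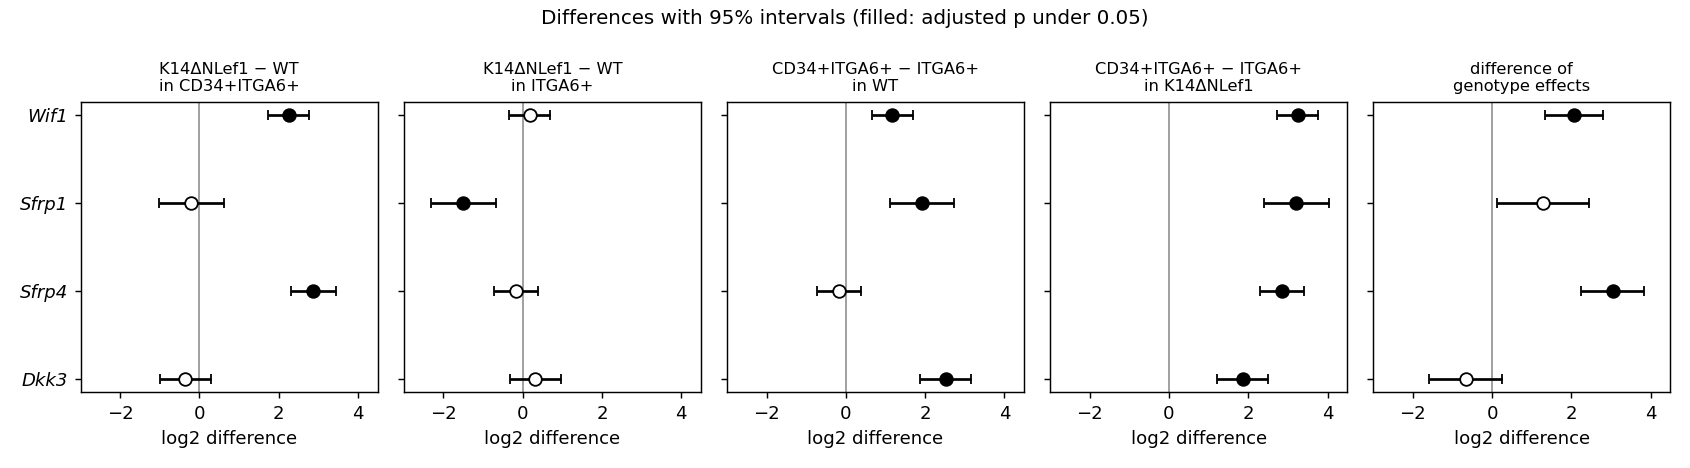
The horizontal axis of each panel is the log2 difference of group means for the 4 genes, with its 95% interval from limma; filled points have an adjusted p under 0.05. Wif1 (2.25) and Sfrp4 (2.88) stand apart from 0 for the genotype in CD34+ITGA6+ cells and Sfrp1 (-1.49) in ITGA6+ cells, and Sfrp4 is the gene near 0 for the population in WT mice.

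The probe sets of a gene lie in different exons, so each was examined alone, numbered in the order of its identifier. All 10 Wif1 probe sets were higher in K14ΔNLef1 than in WT CD34+ITGA6+ cells, by 0.35 to 3.73 on the log2 scale, and 7 of the 8 that passed the filter were called (limma, adjusted over 67859 probe sets, of which 0.875% were called). Wif1 probe set 10, with the difference of 3.73, passed only through the 3 K14ΔNLef1 CD34+ITGA6+ arrays, so among tested probe sets it had to differ. Wif1 probe set 7, well above the array medians in both CD34+ITGA6+ groups, measured 9.57, 9.80 and 9.37 in WT arrays and 12.51, 11.66 and 11.95 in K14ΔNLef1 arrays. The difference of 2.46 ± 0.30 (adjusted p = 0.00184) was close to that of the gene's median. Wif1 probe set 8 stayed under the array medians in all 12 arrays.

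For Sfrp4, all 7 probe sets were higher in K14ΔNLef1 CD34+ITGA6+ cells, by 0.06 to 6.68, and the 5 that passed the filter were called. Of these, 4 passed only through the 3 arrays in which they were high. Sfrp4 probe set 1 went from 2.40, 2.47 and 2.32 in WT arrays to 9.89, 8.14 and 9.19 in K14ΔNLef1 arrays. Sfrp4 probe set 3 was the exception, above the array median in all 12 arrays, and so its test does not depend on the filter. It measured 11.17, 11.30 and 11.12 in WT and 12.54, 12.27 and 12.48 in K14ΔNLef1 CD34+ITGA6+ arrays, a difference of 1.23 ± 0.19 (adjusted p = 0.0079). Its level in ITGA6+ cells of both genotypes, 10.68 to 11.08, was far above that of the other Sfrp4 probe sets there.

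Sfrp1 had 4 probe sets, and all 4 were lower in K14ΔNLef1 than in WT ITGA6+ cells, by 0.33 to 1.99 as log2 differences of -0.33 to -1.99. Of the 3 that passed the filter, 1 was called, against 2.44% of all probe sets. Sfrp1 probe set 4 measured 13.13, 13.24 and 13.13 in WT and 12.25, 12.31 and 11.63 in K14ΔNLef1 ITGA6+ arrays, a difference of -1.11 ± 0.21 (adjusted p = 0.0145). The same probe set measured 13.43 to 13.54 in all 6 CD34+ITGA6+ arrays. Its population difference in WT mice was 0.30 ± 0.21 and was not called (limma, adjusted p = 0.453). Sfrp1 probe sets 1 (2.43) and 3 (1.42) were called in that comparison. The high level of Sfrp1 in WT CD34+ITGA6+ array 3 came from probe sets 1 (10.92) and 3 (11.40), while probe set 4 measured 13.46 in it.

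In WT mice all 9 Dkk3 probe sets were higher in the CD34+ITGA6+ population, by 0.26 to 5.15, and 6 of the 7 that passed the filter were called, against 8.92% of all probe sets. In K14ΔNLef1 mice all 9 were again higher, by 0.48 to 4.996, and 5 of the 7 were called, against 5.54%. Dkk3 probe sets 1, 2, 4, 8 and 9 passed the filter only through CD34+ITGA6+ arrays, so a higher level there was in part set by the filter. Dkk3 probe set 6 measured 11.72, 11.22 and 11.05 in WT CD34+ITGA6+ arrays and 6.48, 6.18 and 6.86 in WT ITGA6+ arrays. Dkk3 probe set 5, above the array median in all 12 arrays, ran from 8.29 to 8.53 and from 8.06 to 8.36 in these groups and was not called (0.26 ± 0.20, adjusted p = 0.51). The same probe set was not called in K14ΔNLef1 mice (0.48 ± 0.20, limma, adjusted p = 0.219). None of the 7 was called by limma for genotype in either population, and 0 of them had an unadjusted p under 0.05.

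**Figure D3:**
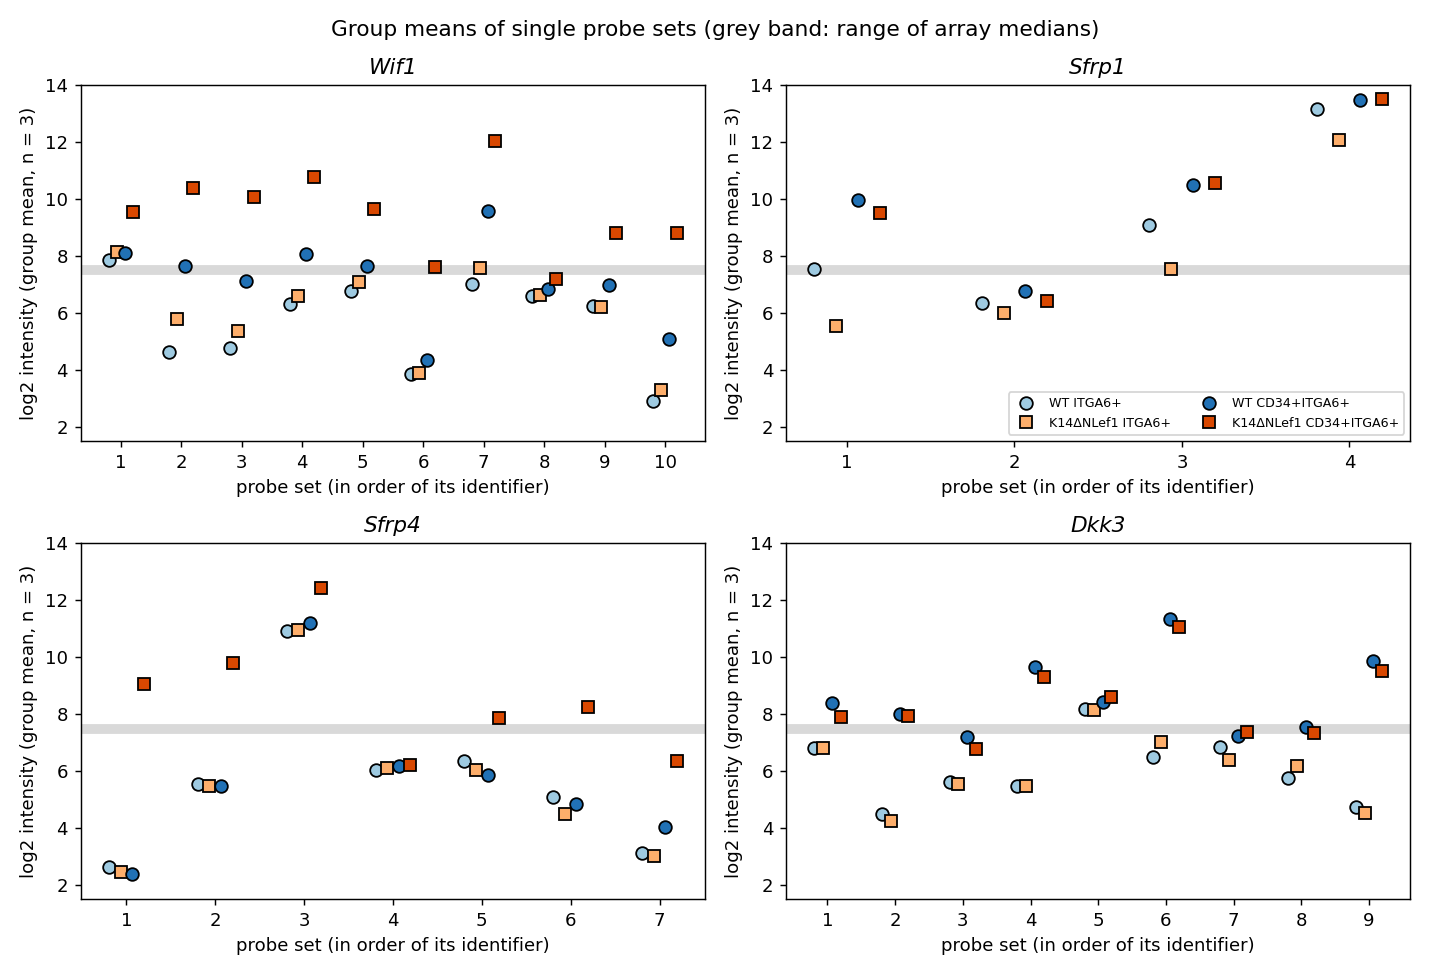
The vertical axis is the mean log2 intensity (n = 3 arrays) of each probe set of the 4 genes in each group, with probe sets along the horizontal axis in the order of their identifiers and the range of array medians in grey. K14ΔNLef1 CD34+ITGA6+ cells (red squares) lie highest for all 10 Wif1 and all 7 Sfrp4 probe sets, and both CD34+ITGA6+ groups lie above both ITGA6+ groups for all 9 Dkk3 probe sets.

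Other secreted Wnt inhibitors gave little to set beside these 4. Of 12 listed, 10 were on the table and 1 passed the filter, Sostdc1, whose product binds BMPs and Lrp co-receptors. Dkk1, Dkk2, Frzb, Sfrp2 and Sfrp5 were among the 9 that did not. Sostdc1 measured 9.92, 9.45 and 9.82 on the log2 scale in WT and 7.93, 8.96 and 7.88 in K14ΔNLef1 ITGA6+ arrays. It was lower in K14ΔNLef1 cells by 1.47, a log2 difference of -1.47 ± 0.34 (limma, adjusted p = 0.0195). The call was lost without WT array 1 (adjusted p = 0.073) or 3 (0.0749) and without K14ΔNLef1 array 1 (0.0877) or 3 (0.0923). In CD34+ITGA6+ cells its difference was -1.24 ± 0.34 (adjusted p = 0.0978).

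Wnt ligands and the membrane proteins that tune receptor levels were examined next. Of 19 ligands, 18 were on the table and 5 passed the filter. None of the 5 was called for genotype in CD34+ITGA6+ cells by limma, and 0 had an unadjusted p under 0.05. In ITGA6+ cells, Wnt16 was lower in K14ΔNLef1 mice (log2 difference -1.49 ± 0.17, adjusted p = 7.67e-05), from 7.80, 7.86 and 8.01 in WT arrays to 6.30, 6.37 and 6.54. Its effect differed between the populations by 1.31 ± 0.24 (adjusted p = 0.0116). With only the probe sets that passed the filter, both calls were lost, at -0.59 (adjusted p = 0.129) and 0.53 (0.643), and the second was also lost with an intensity trend (0.0579). Rspo3, a secreted protein that strengthens Wnt signalling, was lower by 2.54 ± 0.31 as a log2 difference of -2.54 (adjusted p = 1.53e-04), from 7.98, 7.76 and 8.65 to 5.77, 5.16 and 5.83. It was 1 of 3 membrane modulators that passed the filter, of 13 listed and 4 on the table. Wnt16 and Rspo3 passed only through the 3 WT ITGA6+ arrays, so they too had to differ.

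Receptors and intracellular members were compared in the same way. Of 10 receptors tested (16 listed, 14 on the table) none was called by limma in CD34+ITGA6+ cells (0 at an unadjusted p under 0.05), where their median difference was -0.09, and -0.03 over all genes. In ITGA6+ cells 1 of the 10 was called, against 5.3% of all genes, and 3 had an unadjusted p under 0.05. This was the receptor Fzd7, higher in K14ΔNLef1 mice by 0.83 ± 0.21 (log2, adjusted p = 0.0342). Of 16 intracellular members tested (22 listed, 18 on the table) 0 were called by limma in CD34+ITGA6+ cells (1 at an unadjusted p under 0.05). In ITGA6+ cells 1 of the 16 was called, and 3 had an unadjusted p under 0.05. This was Ctnnb1, which encodes β-catenin and was higher by 0.79 ± 0.18 (adjusted p = 0.0202). Each of the 2 calls was lost in 5 of the 6 fits that left out 1 array, Fzd7 in all but the one without WT array 3 and Ctnnb1 in all but the one without K14ΔNLef1 array 3, with adjusted p up to 0.155 and 0.0929. The call of Fzd7 was also lost with no filter (0.0514), with the mean over probe sets (0.0599) and with only the ITGA6+ arrays fitted (0.0588).

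Of 12 genes listed as Wnt targets, 10 passed the filter, and 3 were called for genotype in CD34+ITGA6+ cells, against 1.91% of all genes tested. Cd44, a hyaluronan receptor, was higher in K14ΔNLef1 cells by 1.11 ± 0.17 (log2, limma, adjusted p = 0.00184). Axin2, a feedback inhibitor induced by β-catenin signalling, was higher by 0.95 ± 0.18 (adjusted p = 0.0134), from 7.94, 7.69 and 7.93 in WT to 8.61, 8.95 and 8.84 in K14ΔNLef1 arrays. Jun, a subunit of the AP-1 factor, was lower, with a difference of -0.88 ± 0.18 (adjusted p = 0.018). The Axin2 call was lost without WT array 2 (adjusted p = 0.0575) and without K14ΔNLef1 array 2 (0.055) or 3 (0.0631), and with only the CD34+ITGA6+ arrays fitted (0.0641). The Jun call was lost without WT array 1 (0.0761) and without K14ΔNLef1 array 2 (0.0663) or 3 (0.092), with only the CD34+ITGA6+ arrays fitted (0.0835) and with the mean over probe sets (0.0509). In ITGA6+ cells none of the 10 was called by limma (5 had an unadjusted p under 0.05), and Axin2 differed by -0.65 ± 0.18 (adjusted p = 0.0572). The genotype effect on Axin2 differed between the populations by 1.60 ± 0.26 (adjusted p = 0.00546), the direction in which Wif1 and Sfrp4 differed.

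**Figure D4:**
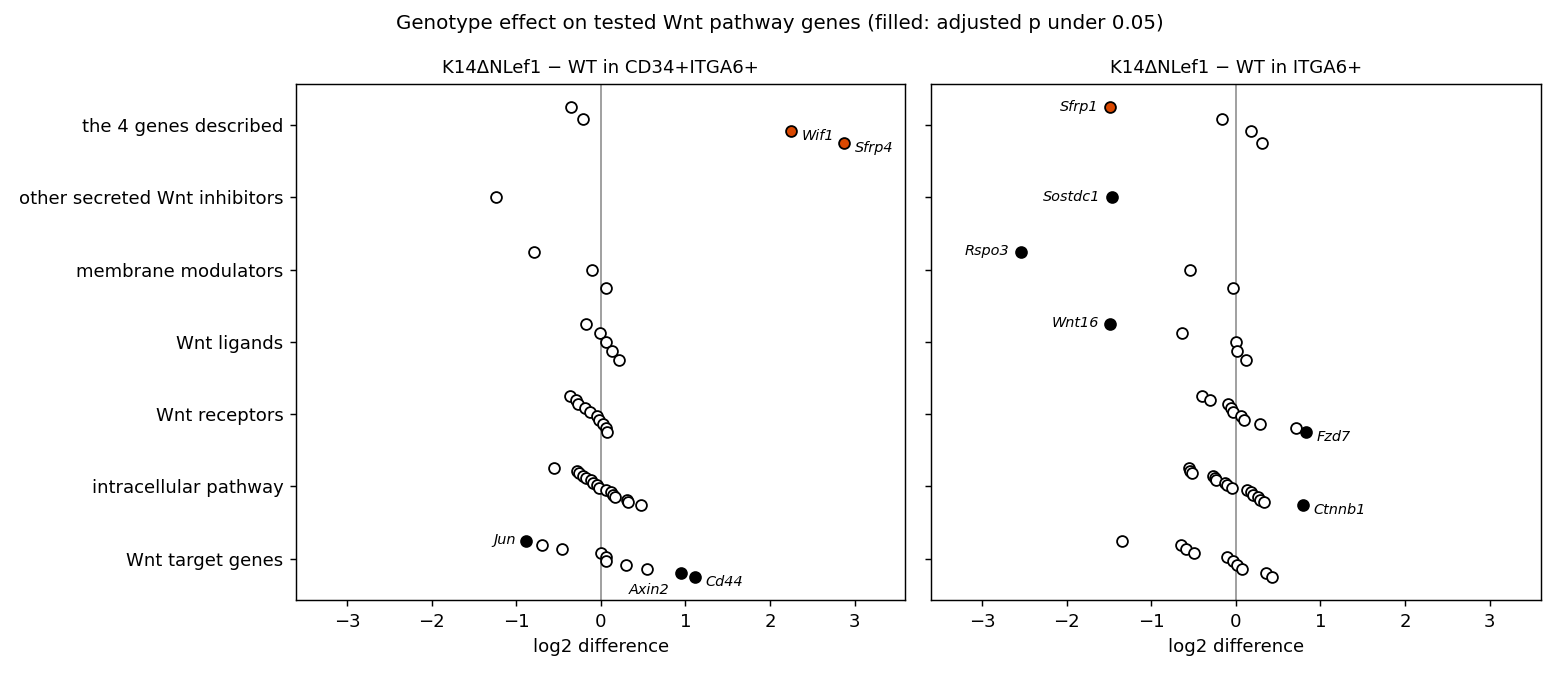
The horizontal axis is the log2 difference of K14ΔNLef1 minus WT cells in each population, with 1 point for each tested gene of the Wnt lists, spread vertically within its list; filled points have an adjusted p under 0.05 and are named. Wif1 (2.25) and Sfrp4 (2.88) have the largest differences among the genes plotted for CD34+ITGA6+ cells, and Rspo3 (-2.54) for ITGA6+ cells.

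Between the populations, the Wnt genes called in both genotypes went the same way in each. In CD34+ITGA6+ cells the receptor genes Fzd7 (log2 difference 2.74 in WT and 1.89 in K14ΔNLef1 mice), Fzd3 (2.36 and 2.30) and Fzd2 (2.30 and 2.09) and the R-spondin receptor Lgr5 (3.86 and 4.31) were higher, as was Id2 (1.99 and 1.40), an inhibitor of basic helix-loop-helix factors. Fzd10 (-1.20 and -2.09), the Wnt cargo receptor Wls (-1.16 and -1.17), the co-repressor Tle3 (-1.10 and -0.75) and the receptor Tnfrsf19 (-2.80 and -2.62) were lower. Over all genes tested, 11.5% were called lower in CD34+ITGA6+ cells in WT and 8.28% in K14ΔNLef1 mice. Lgr5 and Fzd2 passed the filter only through CD34+ITGA6+ arrays and Fzd10 only through ITGA6+ arrays, so these calls were in part set by it. In the alternative fits that kept all arrays compared, with no filter among them, adjusted p (limma) in WT and K14ΔNLef1 mice stayed at or under fixed values. These were 5.16e-05 and 7.9e-05 for Lgr5, 0.00847 and 0.0333 for Fzd2 and 0.0334 and 0.00287 for Fzd10. Called in WT mice alone were Tcf7l2 (1.40), Wnt4 (-1.37), Wnt16 (-1.27), Rspo3 (-2.03) and Axin2 (-1.19), and in K14ΔNLef1 mice alone Ctnnb1 (-0.65). Of these 6 genes, the test of the difference between the genotypes called Wnt16 and Axin2. Wnt16 and Rspo3 passed the filter only through the 3 WT ITGA6+ arrays, so among tested genes they had to differ in WT mice. Leaving out 1 array lost the calls of Fzd10 in WT mice (adjusted p up to 0.0944, without CD34+ITGA6+ array 2 or 3 or ITGA6+ array 3) and Tcf7l2 (up to 0.0594, without array 1 of either population). It also lost those of Tle3 in K14ΔNLef1 mice (up to 0.134, without CD34+ITGA6+ array 1 or 3 or ITGA6+ array 2 or 3) and Ctnnb1 (up to 0.118, without any array but ITGA6+ array 3). The Wnt16 call was lost with only the probe sets that passed the filter (0.093). The Tle3 call in K14ΔNLef1 mice was lost with them too (0.108), with the mean over probe sets (0.091) and with only the arrays compared (0.054).

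Markers of other cell types were set beside the calls of Wif1 and Sfrp4. The cells came from epidermal preparations and were sorted on ITGA6, an integrin of basal keratinocytes, a gate that leaves out dermal cells lacking it. Of 5 dermal papilla markers, Crabp1, a retinoic acid binding protein, passed the filter, and Corin, Alx4, Sox2 and Hhip did not. Crabp1 measured 10.81, 9.57 and 9.95 on the log2 scale in K14ΔNLef1 and 8.41, 8.08 and 8.77 in WT CD34+ITGA6+ arrays, a difference of 1.69 ± 0.29 (limma, adjusted p = 0.00535). Its effect differed between the populations by 2.29 ± 0.41 (adjusted p = 0.0102), as for Wif1 and Sfrp4. The summed intensity of the 5 markers ran from 1117 to 2120 in K14ΔNLef1 and from 593 to 795 in WT CD34+ITGA6+ arrays, and from 329 to 407 and from 406 to 420 in the ITGA6+ arrays. The difference in this sum between the CD34+ITGA6+ groups came mainly from Crabp1. The other 4 markers had means under the array medians, in K14ΔNLef1 and WT CD34+ITGA6+ cells, of 6.09 and 6.62 for Hhip, 5.81 and 6.0025 for Sox2, 6.33 and 6.32 for Corin and 6.93 and 6.51 for Alx4. Their part in the result was not tested.

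The 7 dermal fibroblast markers summed to between 761 and 916 in K14ΔNLef1 and 788 and 807 in WT CD34+ITGA6+ arrays, ranges that overlap, and to 684 to 720 and 690 to 716 in the ITGA6+ arrays. Pdgfra, Dcn, Lum, Pdgfrb and Col3a1 did not pass the filter, while Col1a1 and Col1a2 did. Both lay above the array medians in every CD34+ITGA6+ array, and neither was called for genotype by limma. Col1a2 was called higher in CD34+ITGA6+ cells in both genotypes (means 7.73 against 7.02 in WT and 7.61 against 6.99 in K14ΔNLef1 mice). It passed the filter only through CD34+ITGA6+ arrays, so a higher level there was in part set by the filter. No endothelial, smooth muscle or immune cell marker lay above the array median in all 3 arrays of any group. Of 5 melanocyte markers Mitf did so in the CD34+ITGA6+ arrays, where the list summed to between 1005 and 1559 in K14ΔNLef1 and 1402 and 1581 in WT mice, against 383 to 527 in ITGA6+ arrays. The 5 measured immune cell markers summed to between 504 and 852 in K14ΔNLef1 and 310 and 553 in WT CD34+ITGA6+ arrays, and 367 to 628 and 288 to 321 in the ITGA6+ arrays. Of these, Tyrobp passed the filter, only through K14ΔNLef1 arrays. It measured 7.40, 8.42 and 8.25 in K14ΔNLef1 and 7.38, 6.17 and 6.60 in WT CD34+ITGA6+ arrays. Its genotype differences, 1.31 in CD34+ITGA6+ and 1.24 in ITGA6+ cells, had an unadjusted p under 0.05 (limma) and were not called. Beside the Sfrp1 difference in ITGA6+ cells, 4 measured suprabasal markers summed to between 5268 and 5732 in K14ΔNLef1 and 7673 and 7901 in WT ITGA6+ arrays. The 5 sebocyte markers summed to between 1554 and 1902 and 1292 and 1360. Most of these sums came from Krt10 (geometric mean intensity 4450.5 in K14ΔNLef1 and 6343.9 in WT ITGA6+ arrays) and Scd1 (1249.5 and 906.2). Of the 2 markers tested in each list, none was called for genotype in ITGA6+ cells by limma, and both suprabasal ones had an unadjusted p under 0.05. The part of these cell types in the results was not tested.

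The genes most like each inhibitor across the 12 arrays were found by Pearson's r over the 5711 other tested genes, as a description over arrays that fall into 4 groups. Wif1 was most like Slc14a1 (r = 0.974), a urea transporter, Ahcyl2 (0.956) and Cdh11 (0.952), a cadherin. Slc14a1 had group means of 9.60 in K14ΔNLef1 and 7.61 in WT CD34+ITGA6+ cells, and of 6.01 and 5.66 in ITGA6+ cells. Sfrp4 was most like Apod (0.973), an apolipoprotein, Aldh1a2 (0.951), a retinoic acid synthesis enzyme, and Gpatch2 (0.905). The rank correlations of Sfrp4 with these genes (Spearman's rho) were lower, at 0.741, 0.510 and 0.797. Apod had a mean of 9.91 in K14ΔNLef1 CD34+ITGA6+ cells and between 5.62 and 6.02 in the other groups. Aldh1a2 had means of 9.07 and between 4.86 and 5.10. Gpatch2 moved over a much smaller range, from 7.65 to 8.05.

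Sfrp1 was most like Adgrg6 (0.980), an adhesion receptor, Ltbp1 (0.942), a binding protein of latent TGF-β, and Egfl6 (0.938), a secreted matrix protein. Egfl6 had means of 11.04 in K14ΔNLef1 and 10.75 in WT CD34+ITGA6+ cells, 8.70 in WT ITGA6+ cells and 6.89 in K14ΔNLef1 ITGA6+ cells, which puts the 2 ITGA6+ groups in the order seen for Sfrp1. Dkk3 was most like Nt5e (0.983), an ectonucleotidase, Cck (0.974), the cholecystokinin hormone gene, and Ltbp2 (0.963). Nt5e had means of 10.11 in WT and 9.78 in K14ΔNLef1 CD34+ITGA6+ cells and of 6.31 and 7.14 in ITGA6+ cells. Among the 4 inhibitors themselves, r was highest for Wif1 with Sfrp4 (0.883) and Sfrp1 with Dkk3 (0.806) and lowest for Sfrp4 with Dkk3 (0.397).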

How the data were processed

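Biotin-labelled cDNA, made from amplified total RNA, was hybridised to 12 arrays. The authors deposited linear intensity values normalised by RMA with Affymetrix Power Tools (build mm9, versions not given). How its 114330 probe sets were chosen was not stated. RMA adjusts arrays to each other, so a change shared by most genes is partly removed, and amplification need not keep differences in proportion. Each deposited intensity was taken as log2, and a gene was the median over its probe sets with 1 symbol (96.0%). With limma 3.58.1 (R 4.3.3), a mean per group was estimated from the 12 arrays together, with 8 residual degrees of freedom. Two-sided p-values were adjusted by Benjamini-Hochberg over the genes tested, with a threshold of 0.05. The scripts were tested on simulated data. Arrays of a group are biological replicates per the labels, which do not name the mice, so p-values measure the spread between these samples. Same-numbered WT arrays of the 2 populations deviated together (r from 0.11 to 0.23, 3 of 3 pairs over 0.1), so by the data, not the labels, the numbers pair them. They did not for the genotype comparisons (1 of 3 and 0 of 3 pairs over 0.1). For the populations in K14ΔNLef1 mice, 2 of 3 pairs were over 0.1. Same-numbered arrays there had r from 0.069 to 0.133, and arrays of different number from -0.118 to -0.0056, so the numbers may pair these too. Arrays have no read depth, and precision is limited by their number. The genes described and the lists were chosen with earlier results of these data known. Genes named were the 4 inhibitors, Lef1, Cd34 and Itga6 as checks, the 3 most similar genes of each inhibitor, called genes of each Wnt list, and markers. Lists were described by counts and were not tested.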

Additional observations from a re-analysis of the deposited data

Results flagged for a closer look

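The genotype effect differed between the populations for 2 of the 4 genes by a test of the difference itself, the interaction term in limma. For Wif1 the difference (CD34+ITGA6+ minus ITGA6+ cells) was 2.07 ± 0.34 on the log2 scale (adjusted p = 0.00597), and for Sfrp4 it was 3.04 ± 0.37 (adjusted p = 4.77e-04). Sfrp4 passed the filter on low values only through the 3 arrays in which it was high, so among tested genes it had to differ. With no filter, over 11287 genes, adjusted p was 0.00133 for Sfrp4 and 0.0128 for Wif1. All 3 K14ΔNLef1 CD34+ITGA6+ arrays lay above all WT CD34+ITGA6+ arrays for both genes. With each of the 12 arrays left out in turn, the difference ranged from 1.88 to 2.25 for Wif1 and from 2.79 to 3.23 for Sfrp4, and adjusted p stayed at or under 0.0214 and 0.00222. By single probe sets, 1 of the 8 tested for Wif1 and 3 of the 5 tested for Sfrp4 were called (limma, 0.407% of all probe sets). The 3 called for Sfrp4 passed the filter only through the 3 K14ΔNLef1 CD34+ITGA6+ arrays. Probe sets above the array median in all 12 arrays were not called. These were Wif1 probe set 1 (1.20 ± 0.33, adjusted p = 0.221) and Sfrp4 probe set 3 (1.22 ± 0.26, adjusted p = 0.0911).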

How the results depend on the processing

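Over 20 values of the 4 genes and 322 alternative fits, 307 kept direction and side of the threshold. The 7 that lost a call all concern Sfrp1 by genotype in ITGA6+ cells, at -1.49 with no filter (adjusted p = 0.0595), at -1.49 when fitted with a replicate block (0.0598), and in 5 of 6 fits without 1 array (range -1.79 to -1.19). The 8 that changed sign were values not called. Sfrp1 by genotype in CD34+ITGA6+ cells was 0.26 without WT array 3 and 0.068 with passing probe sets only, an alternative chosen after seeing the data, and Dkk3 was 0.012 with the latter. In ITGA6+ cells Dkk3 was -0.0073 with the mean over probe sets and -0.071 without WT array 1, Wif1 -0.0017 without WT array 1 and Sfrp4 0.029 without K14ΔNLef1 array 2. Sfrp4 by population in WT mice was 0.039 with the mean. Leave-one-out fits of these values ranged from -0.55 to 0.26 for Sfrp1 in the bulge gate, and for ITGA6+ cells from -0.0017 to 0.33 for Wif1, -0.32 to 0.029 for Sfrp4 and -0.071 to 0.54 for Dkk3. Under the stricter filter (2327 genes) Sfrp4 and Dkk3 were not tested. Counts of genes called moved from 109 by genotype in CD34+ITGA6+ cells to 174 with the mean, 70 with only those arrays and 71 to 106 without 1 array (71 without K14ΔNLef1 array 3). In ITGA6+ cells they moved from 303 to 174 with the stricter filter and 193 to 226 without 1 array (197 without WT array 3, 193 without K14ΔNLef1 array 3). By population the stricter filter moved 982 to 516 in WT and 737 to 449 in K14ΔNLef1 mice, where leaving out 1 array gave 478 to 705 (478 without CD34+ITGA6+ array 2). For the difference of effects, 88 became 49 with the stricter filter and 144 with the mean. The cause of these shifts was not tested, except that the stricter filter tests fewer genes. The replicate block changed no other call of the 4 genes. A replicate block within genotype, chosen after seeing the data for the population differences and the difference of effects, changed no call of theirs (1103, 824 and 101 genes called). Signal near background limits most probe sets of Wif1, Sfrp4 and Dkk3 in ITGA6+ cells.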
